A study of Mus musculus with 9 samples.

Results

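The genes described are Ctcf, Yy1, Ldb1, Satb1, Top2b, Lmna, Lmnb1 and Lbr, 8 chromatin architecture genes chosen by symbol from the 41128 gene rows of an RNA-seq count table. Every symbol matched 1 row, and all 8 genes passed the low-count filter and were tested. The libraries came from 9 mouse B-cell lymphomas, 1 library per tumor. In all of them the IµBcl6 transgene, which keeps Bcl6 on in B cells, was present, and per the study's methods so was a Cγ1-Cre allele, which acts in B cells entering the germinal center. In the 3 control tumors (Bcl6, labelled IµBcl6 Smc3 wt/wt) Smc3 was intact, and in the 6 others (Smc3/Bcl6, labelled IµBcl6 Smc3 wt/-) the Cre had 1 Smc3 allele, encoding a core subunit of the cohesin ring, to delete. The labels gave neither age nor sex, and they named mesenteric lymph node for tumor 1 of each genotype and lymph node for the other 7 tumors. The question was whether a lower dose of cohesin went with other levels of the genes that fold or anchor chromatin beside it.

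Cohesin extrudes loops of DNA until it meets CTCF, a zinc finger protein bound to its motif, so both together set the boundaries of chromosomal domains. YY1 and LDB1 hold enhancers and promoters together, SATB1 binds AT-rich DNA and organizes chromatin in T cells, and topoisomerase IIβ relieves torsion at loop anchors. At the nuclear rim, the A-type lamins (from Lmna), the B-type lamin B1 (Lmnb1) and the lamin B receptor (Lbr) tether silent chromatin. B lymphocytes are known for having little A-type lamin.

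Library totals ran from 10156728 to 17774577 assigned reads with a median of 14228612. Smc3 itself stood at 126, 99.5 and 88.1 CPM (read counts relative to the library's size, scaled by the trimmed mean of M-values, TMM) in Bcl6 tumors and between 27.9 and 111 CPM (median 106) in the Smc3/Bcl6 group. The log2 fold change of Smc3, given throughout as Smc3/Bcl6 over Bcl6, was -0.19 with a standard error (SE) of 0.38, and the deleted allele cannot be read from gene-level counts. It was 0.01 (SE 0.14) without Smc3/Bcl6 tumor 2, and in limma 0.06. By RT-qPCR, a separate measure, the study reported reduced Smc3 expression in Smc3/Bcl6 tumors. Smc3/Bcl6 tumor 2 stood apart, with a TMM factor of 0.693 against 0.964 to 1.10 in the other 8 libraries and the lowest level of 5 of the 8 genes, so results are also given without it. B-cell markers, 8 genes with Cd79a among them, summed to between 2770 and 10930 CPM in every tumor. T-cell markers, 18 genes led by Cd3e, summed to between 154 and 4221 CPM, so these libraries held the RNA of other cells in unequal amounts. In such bulk samples fewer cells of a type and less RNA per cell cannot be told apart.

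None of the 8 genes passed the test between the genotypes. In the quasi-likelihood test of edgeR, with p-values adjusted after Benjamini and Hochberg over 14057 genes, each had an adjusted p of 1. At an adjusted p under 0.05, 0 of 8 were called, as were 0.0% of all genes tested. At an unadjusted p below 0.05 the same test called 0 of the 8 and 79 of all genes (0.562%), and DESeq2 called 0 genes after adjustment and 209 before it. The study's looser thresholds ask for an unadjusted p under 0.1 together with a log2 fold change beyond 0.56 either way, and there 0 of 8 passed beside 2.15% of all genes. Without Smc3/Bcl6 tumor 2 it was again 0 of 8, beside 3.82%. The median log2 fold change of the 8 genes was -0.27, with 2 positive and 6 negative, against 0.06 over all genes tested. The median was -0.11, with 3 positive and 5 negative, against 0.03 when Smc3/Bcl6 tumor 2 was left out. For all 8 genes the CPM ranges of the genotypes overlapped, while 0.484% of all genes had groups that did not overlap. In limma with sample quality weights 1 of 8 passed them, Satb1, beside 11.7%. The same-numbered tumors 1 to 3 of each genotype were also treated as pairs, though the labels do not say what a number shares. That fit over 6 tumors put 1 of the 8 past the looser thresholds, Satb1, beside 2.24% of all 13360 genes tested there. The T-cell marker Cd3e passed them in both fits as well. Its log2 fold change was -2.69 in limma (limma's unadjusted p = 0.0445) and -1.01 with the pairs (edgeR's unadjusted p = 0.0908). In the main edgeR fit it was -1.04 (SE 1.19). Cd3e is 1 of 18 T-cell markers, and these did not all move together. In the tumors numbered 2, Cd3e was at 454 CPM in Bcl6 and 205 CPM in Smc3/Bcl6, and Lck at 887 and 619 CPM. Cd3d went the other way there, at 263 and 435 CPM. The tumors are the unit of these tests. The p-values set the genotype difference against the spread between tumors of a genotype, and with the pairs against the spread left after them.

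**Figure D1:**
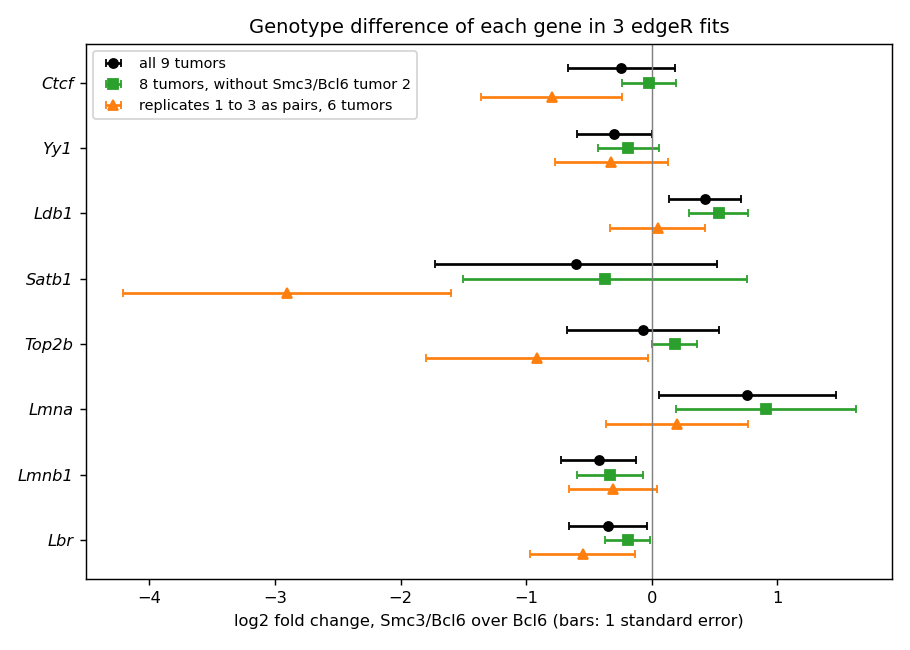
Log2 fold change (x axis, Smc3/Bcl6 over Bcl6) of each of the 8 genes in 3 edgeR fits, with bars of 1 SE; black circles use all 9 tumors, green squares leave out Smc3/Bcl6 tumor 2, and orange triangles pair the tumors numbered 1 to 3. Satb1 lay at -0.60 over all 9 tumors and at -2.91 in the paired fit, and Top2b changed sign from -0.07 to 0.18 without Smc3/Bcl6 tumor 2.

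Ctcf (ENSMUSG00000005698.10, mm10 chr8:105636568-105682922, plus strand), the boundary protein, was at 191, 165 and 115 CPM in the Bcl6 tumors. In the Smc3/Bcl6 tumors it reached from 37.2 CPM in tumor 2 over a median of 138 to 207 CPM in tumor 5. Only tumor 2 lay below the Bcl6 tumors, and the other 5 fell between 128 and 207 CPM. The means were 157 ± 38.6 CPM (SD, n = 3) and 133 ± 54.7 CPM (SD, n = 6), and the log2 fold change was -0.24 (SE 0.43). Without tumor 2 the Smc3/Bcl6 mean was 152 ± 31.3 CPM (SD, n = 5) and the log2 fold change -0.03. The study, too, reported no difference for further cohesin subunits and related genes, and its display of normalized counts included Ctcf. Among the 8 remaining tumors Ctcf spanned 1.79-fold, and its SD of log2 CPM stood at the 27.1 percentile of all genes tested.

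Yy1 (ENSMUSG00000021264.11, chr12:108792973-108820148, plus strand), a zinc finger factor of enhancer and promoter contacts, was at 31.6, 30.3 and 18.4 CPM in Bcl6 tumors. Its Smc3/Bcl6 values went from 14.8 CPM in tumor 2 to 28.4 CPM in tumor 5 with a median of 21.3 CPM. Tumors 2 and 4, at 14.8 and 17.7 CPM, were below every Bcl6 tumor, and none was above the highest. The log2 fold change was -0.30 (SE 0.30), or -0.19 without tumor 2.

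Ldb1 (ENSMUSG00000025223.9, chr19:46031570-46045214, minus strand), the dimerizing cofactor that LIM-domain and GATA factors use to join distant elements, was at 63.6, 83.9 and 63.5 CPM in Bcl6 tumors. The Smc3/Bcl6 tumors ran from 61.6 to 122 CPM with a median of 105 CPM. Smc3/Bcl6 tumors 3 to 6, at 105 to 122 CPM, all lay above the highest Bcl6 tumor, whereas tumors 1 and 2, at 61.7 and 61.6 CPM, lay just below the lowest. With means of 70.3 ± 11.8 CPM (SD, n = 3) and 94.3 ± 26.04 CPM (SD, n = 6), the log2 fold change was 0.42 (SE 0.29, edgeR's unadjusted p = 0.173). Without Smc3/Bcl6 tumor 2 it was 0.53 (SE 0.23), under the looser fold threshold of 0.56, and with the tumors paired it was 0.05 (SE 0.38).

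Satb1 (ENSMUSG00000023927.10, chr17:51736187-51833290, minus strand) varied most. It was at 40.9, 115 and 98.4 CPM in Bcl6 tumors. In the Smc3/Bcl6 tumors it was at 1.73, 6.67, 186, 101, 24.7 and 13.6 CPM in tumors 1 to 6, a median of 19.2 CPM. Smc3/Bcl6 tumors 1, 2, 5 and 6 were below every Bcl6 tumor, tumor 4 was among them and tumor 3 was the highest of all. The extremes, 25 reads in tumor 1 and 3561 in tumor 3, were 107-fold apart in CPM and both belonged to the same genotype. Over the 8 tumors other than Smc3/Bcl6 tumor 2, its SD of log2 CPM, 2.17, was at the 97.4 percentile of all genes, whose median SD was 0.43. The log2 fold change of -0.60 (SE 1.13) was smaller than its SE, and it was -1.56 without Smc3/Bcl6 tumor 3, and -0.35 without tumor 1. In the paired fit it was -2.91 (SE 1.31, edgeR's unadjusted p = 0.0652, adjusted p = 0.983), and with an added offset for gene length and GC content it was -1.97 (unadjusted p = 0.123), past the p threshold no more. Only tumors 1 to 3 enter that fit, so Smc3/Bcl6 tumors 4 (101 CPM), 5 (24.7 CPM) and 6 (13.6 CPM) do not count there, and within the pairs Satb1 was lower in Smc3/Bcl6 tumors 1 and 2 and higher in tumor 3.

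**Figure D2:**
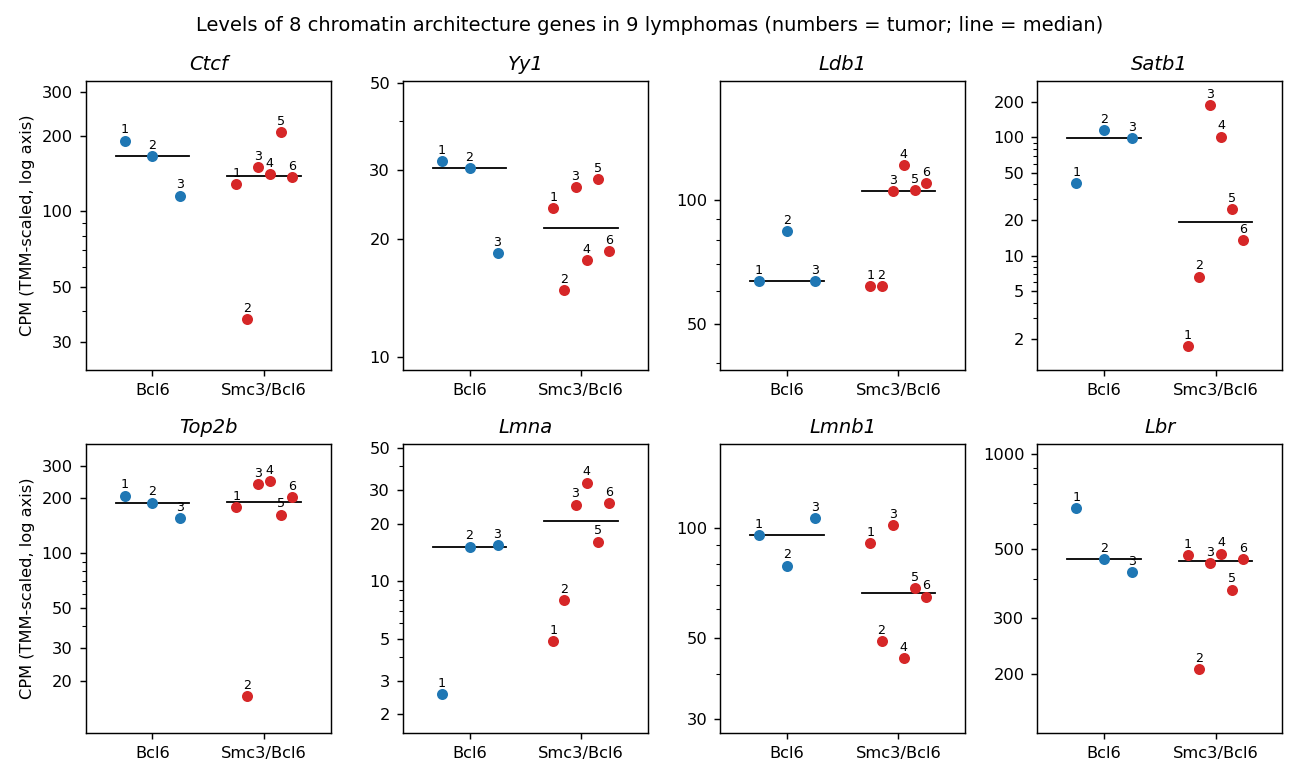
TMM-scaled CPM (log y axis, own scale per panel) of the 8 genes in the 3 Bcl6 (blue) and 6 Smc3/Bcl6 (red) tumors; each point is a tumor with its number, and the line is the group's median. Every panel shows overlapping groups, and Smc3/Bcl6 tumor 2 is the lowest point for 5 genes, reaching 16.5 CPM for Top2b.

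Top2b (ENSMUSG00000017485.5, chr14:16365179-16435462, plus strand), topoisomerase IIβ, was at 207, 190 and 156 CPM in Bcl6 tumors. The Smc3/Bcl6 values ran from 16.5 CPM in tumor 2 over a median of 191 to 249 CPM in tumor 4. Apart from tumor 2 they lay between 163 and 249 CPM, and tumors 3 and 4 exceeded every Bcl6 tumor. The log2 fold change was -0.07 (SE 0.60), and without tumor 2 it was 0.18. A 15.1-fold range over 9 tumors shrank to 1.598-fold over 8.

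Smc3/Bcl6 tumor 2 was low for long genes over the whole table, but among the 8 genes only in part. Of all genes tested, the 3492 with the longest exon sequence had a median log2 difference of -1.07 between tumor 2 and the median of the other tumors, and the 3495 with the shortest had one of 0.97. Top2b and Satb1 have the longest exon sequence of the 8 genes, at 14613 and 19027 bases, and in tumor 2 their log2 CPM minus the median of the other tumors was -3.56 and -3.22. For Lmnb1 (2962 bases) and Ldb1 (4606 bases) the log2 difference was -0.79 and -0.61, and over all genes the median was -0.09. Yy1 (6418 bases) and Lmna (5838 bases) are longer than Ctcf and Lbr, yet their differences were smaller, at -0.77 and -0.98. For Ctcf, at 4860 bases, it was -1.96, farther than for a gene of like length such as Lbr (-1.16). After the offset for length and GC content the deviations were -1.96 for Top2b, -1.21 for Satb1 and -1.65 for Ctcf, and tumor 2 was the lowest for 4 of the 8 genes. What set this library apart was not tested.

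**Figure D3:**
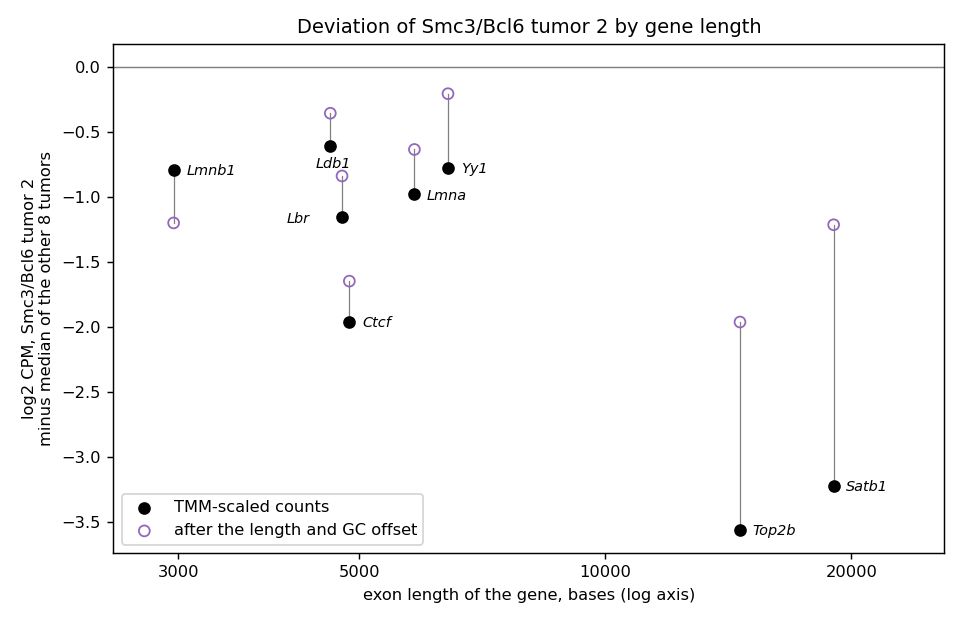
Log2 CPM of each of the 8 genes in Smc3/Bcl6 tumor 2 minus the median of the other 8 tumors (y axis) against exon length in bases (log x axis), before (filled) and after (open) an offset for length and GC content. The longest genes, Top2b and Satb1, moved most with the offset, from -3.56 to -1.96 and from -3.22 to -1.21.

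Lmna (ENSMUSG00000028063.10, chr3:88480147-88509956, minus strand), the gene of lamins A and C, was at 2.56, 15.2 and 15.5 CPM in Bcl6 tumors. It was at 4.86, 7.94, 25.2, 32.9, 16.1 and 25.7 CPM in Smc3/Bcl6 tumors 1 to 6. Tumors 3 to 6 exceeded every Bcl6 tumor, and Bcl6 tumor 1 was the lowest of the 9. The means of 11.1 ± 7.38 CPM (SD, n = 3) and 18.8 ± 11.01 CPM (SD, n = 6) gave a log2 fold change of 0.76 (SE 0.70). It was 0.23 without Bcl6 tumor 1, 0.49 without Smc3/Bcl6 tumor 4 and 0.20 with the tumors paired.

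Lmnb1 (ENSMUSG00000024590.8, chr18:56707813-56753424, plus strand), the gene of lamin B1, was at 95.8, 79.1 and 107 CPM in Bcl6 tumors and between 44.1 and 102 CPM with a median of 66.7 CPM in the Smc3/Bcl6 group. Smc3/Bcl6 tumors 2, 4, 5 and 6 lay below every Bcl6 tumor, and tumors 1 and 3 lay among them. The log2 fold change was -0.42 (SE 0.30, edgeR's unadjusted p = 0.182). Without Smc3/Bcl6 tumor 3 it was -0.59 with an unadjusted p of 0.075 in edgeR, past the looser thresholds, as were 4.51% of all genes in that fit.

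Lmna and Lmnb1 thus leaned in opposite directions, and their ratio within each library was compared. The log2 ratio of Lmna to Lmnb1 CPM was -5.23, -2.38 and -2.78 in Bcl6 tumors and from -4.23 to -0.42 in Smc3/Bcl6 tumors, so Lmnb1 exceeded Lmna in all 9. Smc3/Bcl6 tumors 3 to 6 had higher ratios than every Bcl6 tumor, and tumors 1 and 2 did not. The means of -3.46 ± 1.54 (SD, n = 3) and -2.12 ± 1.28 (SD, n = 6) differed by 1.34, with a p of 0.19 in an exact two-sided permutation test over 84 splits, whose smallest possible p is 0.0238. Bcl6 tumor 1 carried most of this difference, which was 0.46 without it.

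Lbr (ENSMUSG00000004880.6, chr1:181815335-181843046, minus strand), the lamin B receptor, which is also a sterol reductase, was at 674, 464 and 421 CPM in Bcl6 tumors. In Smc3/Bcl6 tumors it went from 208 CPM in tumor 2 to 483 CPM in tumor 4, with a median of 457 CPM. Bcl6 tumor 1 was the highest of all, and tumors 2 and 5 of the Smc3/Bcl6 group were below the lowest Bcl6 tumor. The log2 fold change was -0.35 (SE 0.31), but -0.17 without Bcl6 tumor 1 and -0.19 without Smc3/Bcl6 tumor 2.

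Per kilobase of exon, Lbr was the most abundant of the 8 genes. Its median over 9 tumors was 97.1 CPM per kilobase (range 43.6 to 141), and it exceeded the next gene, Ctcf, in 9 of 9 tumors with ranges that did not overlap. Ctcf followed at a median of 28.9 CPM per kilobase and Lmnb1 at 26.7, and Ctcf was the higher in only 5 of 9. Ldb1 at 18.2 and Top2b at 13.0 CPM per kilobase came next. Yy1, Lmna and Satb1 formed the low end at 3.73, 2.66 and 2.15 CPM per kilobase. Below Lbr, all neighbors in this order had overlapping ranges. Exon length was the union over all annotated transcripts, so a gene with long alternative ends is set too low on this scale.

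The other genes of the same machinery gave as little difference. Of 80 genes in 7 lists by role, 71 were tested, 0 passed edgeR's test after adjustment, and at the looser thresholds 0 were higher and 2 were lower, beside 1.28% and 0.868% of all genes. The median log2 fold change of the 71 was -0.02, against 0.06 over all genes tested. Syne1 (nesprin-1, which links the nuclear envelope to the cytoskeleton) was at 9.44, 17.1 and 53.4 CPM in Bcl6 tumors and from 3.39 to 14.9 CPM in the Smc3/Bcl6 ones. The genotypes differed by -1.36 on the log2 scale (SE 0.55, edgeR's unadjusted p = 0.0343), but Bcl6 tumor 3 alone was high, and without it the value was -0.36. Top2a, the topoisomerase II of dividing cells and paralog of Top2b, was at 444, 259 and 248 CPM in Bcl6 tumors and between 79.9 and 245 CPM in the Smc3/Bcl6 group. The groups of Top2a did not overlap, by a margin of about 2 CPM, and the log2 fold change was -0.96 (SE 0.40, edgeR's unadjusted p = 0.0375). It was -0.69 without Bcl6 tumor 1, when Top2a no longer passed the looser thresholds. Markers of proliferation, 8 mitotic genes such as Mki67, summed to 669 to 1270 CPM in Bcl6 and 261 to 1253 CPM in Smc3/Bcl6 tumors. The 1253 CPM was tumor 2, and the other Smc3/Bcl6 tumors reached 788 CPM at most. In tumor 2 Cdk1, Ccnb2, Cdc20, Aurkb, Plk1 and Ccnb1 were at 291, 274, 226, 164, 120 and 97.04 CPM. Mki67 was at 53.55 CPM there, the lowest of the 9 tumors, and Bub1 was at 26.03 CPM. The part of these markers in the level of Top2a was not tested.

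By list, the nuclear lamina and envelope genes (17 tested) had a median log2 fold change of -0.02 and the topoisomerases with their repair enzymes (9 tested) one of -0.31. The 5 tested boundary factors related to CTCF had a median of -0.20, and the smallest p among them belonged to Zfp143 (-0.27, SE 0.23), a factor of promoter loop anchors. The 9 tested genes of YY1 relatives and the INO80 remodeler had a median of 0.05, with the smallest p for Rybp, a YY1-binding Polycomb protein (-0.37, SE 0.45). Among 12 tested LDB1 complex genes (median 0.07) it was Rlim, a ubiquitin ligase of LIM cofactors, at 0.36 (SE 0.24). Among 6 genes of matrix attachment and AT-rich DNA binding (median -0.02) it was Arid3a, at 0.18 (SE 0.52). Among 13 genes for HP1 proteins and for sterol synthesis beside Lbr (median -0.12) it was Ebp, a sterol isomerase, at 0.66 (SE 0.65). Ebp was at 354 CPM in Smc3/Bcl6 tumor 2 and between 42.5 and 84.02 CPM in the other 8 tumors, and without that tumor its log2 fold change was -0.12.

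Satb1 is a known T-cell gene, so its level was set against Cd3e, a chain of the CD3 complex that marks T cells. Cd3e was at 21.5, 454 and 322 CPM in Bcl6 tumors and at 5.13, 205, 384, 18.9, 142 and 22.8 CPM in Smc3/Bcl6 tumors 1 to 6. Both genes were high in Bcl6 tumors 2 and 3 and in Smc3/Bcl6 tumor 3, and both were lowest in Smc3/Bcl6 tumor 1. They parted in Smc3/Bcl6 tumor 4, with 101 CPM of Satb1 beside little Cd3e, in Bcl6 tumor 1, and in Smc3/Bcl6 tumor 2, with 6.67 CPM of Satb1 beside 205 CPM of Cd3e. The CPM of Satb1 per CPM of Cd3e accordingly ran from 0.0325 in Smc3/Bcl6 tumor 2 to 5.35 in Smc3/Bcl6 tumor 4, with 1.90 in Bcl6 tumor 1 and 0.174 to 0.597 in the other 6 tumors.

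**Figure D4:**
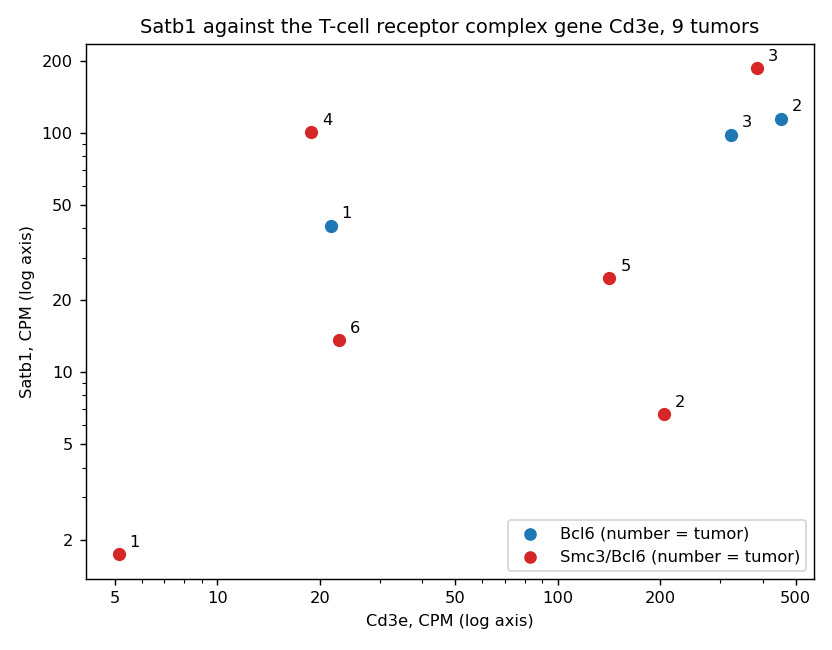
Satb1 CPM (log y axis) against Cd3e CPM (log x axis) in the 3 Bcl6 (blue) and 6 Smc3/Bcl6 (red) tumors, numbered. Bcl6 tumors 2 and 3 and Smc3/Bcl6 tumor 3 are high in both, Smc3/Bcl6 tumor 4 has 101 CPM of Satb1 at 18.9 CPM of Cd3e, and Smc3/Bcl6 tumor 2 has 6.67 CPM at 205 CPM.

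Over all 9 tumors the relation did not reach the threshold. Pearson's r of log2 CPM was 0.589 (exact permutation p = 0.107, 0.856 after Benjamini-Hochberg adjustment over the 8 genes) and Spearman's rho 0.583 (exact permutation p = 0.108, adjusted 0.59). Without Smc3/Bcl6 tumors 1 and 4, the farthest from the median of Cd3e, r was 0.507 (exact permutation p = 0.25). Without Smc3/Bcl6 tumor 2 it was 0.753 (exact permutation p = 0.0253, adjusted 0.202). It was 0.745 without Smc3/Bcl6 tumor 4 (exact permutation p = 0.0475, not adjusted over the 8 genes) and 0.285 without Smc3/Bcl6 tumor 1. With the offset for length and GC content, which raised Satb1 in tumor 2, r was 0.733 (exact permutation p = 0.0235, likewise not adjusted). Within the 6 Smc3/Bcl6 tumors it was 0.514 (exact permutation p = 0.289), and in the 7 tumors labelled lymph node it was 0.301 (exact permutation p = 0.452). That split was added after seeing the data, the 2 tumors labelled mesenteric lymph node are too few for a value, and the study's text names mesenteric lymph node for all tumors, so the labels may not part tissues. The widest gap between neighboring Cd3e values, 2.63 log2 units, parted 4 tumors from 5 and exceeded the next, 1.85, and either side held too few tumors for a test of its own. For the other 7 genes r with Cd3e ran from -0.42 for Lbr to 0.34 for Lmna, and none of these r had an adjusted p below 0.94. By rank, Lbr had a rho of -0.533 (exact permutation p = 0.1475), with an adjusted p of 0.59 like that of Satb1.

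The other T-cell genes had an r of 0.843 (Tcf7) to 0.982 (Lck) with Cd3e over 9 tumors, against 0.589 for Satb1. Across all 18 T-cell genes, r with Satb1 had a median of 0.548 over 9 tumors and 0.757 over 8, as a description over genes that share libraries. Tcf7, a transcription factor of T cells, had the highest, at 0.913 and 0.926, whereas Cd28 was at 0.510 and 0.532. Among all genes tested, Cd3e was the 1428th most like Satb1 over 9 tumors and the 772nd over 8. Over the 8 tumors other than Smc3/Bcl6 tumor 2 the genes most like Satb1 were Lamp3 (r 0.998), Cd53 (0.987), B4galnt1 (0.986), Il2rg (0.985) and Emp3 (0.984). Lamp3 was at most at 3.55 CPM, and Cd53 and Il2rg are general leukocyte genes. Over all 9 they were Bend6 (0.968), Sidt1 (0.968), Pde2a (0.967), Osbpl5 (0.962) and Gm11346 (0.962), so the lists shared no gene.

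For Ctcf the most alike genes also changed with Smc3/Bcl6 tumor 2. Over 8 tumors they included Dhcr7 (r 0.955), Snhg5 (0.950), Cdk8 (0.945) and Sirt1 (0.945), and over 9 tumors Psme4 (0.986), R3hdm2 (0.983), Tlk2 (0.982), Kmt2b (0.980) and Rbm25 (0.978). For Lmna they were Kdm4d (0.972), Smox (0.968), Spryd7 (0.968), Laptm4b (0.964) and Mras (0.963) over 8 tumors. Over 9 tumors they were Rcn2 (0.950), Kdm4d (0.950), Gsn (0.948), Rnase4 (0.948) and Tfpi (0.945), and Kdm4d, on both lists, reached no more than 2.33 CPM. All these coefficients rest on 8 or 9 libraries and describe them only.

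Between the 8 genes themselves, Ctcf went with Top2b (r 0.914) and Lbr (0.832) over 9 tumors, but without Smc3/Bcl6 tumor 2 these were 0.02 and 0.157. Ctcf and Yy1 had an r of 0.773 over 9 tumors and 0.774 over 8. Lmna and Ldb1 had 0.818 over both, and Lmnb1 and Ldb1 had -0.388 over 9 and -0.729 over 8.

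The 8 genes were further set against the mean log2 CPM of 8 marker lists, a choice made after seeing the data. Of 64 relations, 10 had an unadjusted exact permutation p below 0.05 and 0 an adjusted one, the smallest being 0.181. Those of Lmna and Ldb1 are given below. The rest were Lbr (r 0.697) and Top2b (0.620) with the B-cell markers, and Yy1 and Lmnb1 with 2 lists each. Yy1 had an r of -0.771 with the plasma cell and -0.729 with the erythroid markers, and Lmnb1 had -0.696 and -0.768. The plasma cell markers did not run together. Igj was lowest in Smc3/Bcl6 tumor 3, at 165 CPM, where Sdc1 was highest, at 49.9 CPM. In Smc3/Bcl6 tumors 4 and 6 Igj was at 2780 and 1299 CPM and Sdc1 at 15.04 and 12.33 CPM, its lowest values. Lmna ran against the proliferation markers, with an r of -0.80 (exact permutation p = 0.00357, adjusted 0.181) and a rho of -0.90 (exact permutation p = 0.00203, adjusted 0.13). Bcl6 tumor 1, the lowest in Lmna, had the highest mean of these markers (7.19 log2 CPM), and Smc3/Bcl6 tumor 4, the highest in Lmna, had the lowest (4.75). Without both of these tumors, the farthest from the median, r was -0.63. Ldb1 had an r of -0.77 with the same markers (exact permutation p = 0.00567, adjusted 0.181), a rho of -0.77 (exact permutation p = 0.0214, adjusted 0.326), and an r of -0.67 without both. With the macrophage markers, which include Cd68 and Csf1r, Lmna had an r of 0.778 (exact permutation p = 0.0389, adjusted 0.273) and a rho of 0.567 (exact permutation p = 0.121). Without Smc3/Bcl6 tumor 1 and Bcl6 tumor 1, the tumors poorest in macrophage RNA, that r was 0.258. With the stromal and endothelial markers Lmna had an r of 0.729 (exact permutation p = 0.0358, adjusted 0.273). Without Bcl6 tumor 1 and Smc3/Bcl6 tumor 5 that r was 0.497. Macrophages and stromal cells express Lmna too, and its source was not tested. Satb1 against the mean of all T-cell markers had an r of 0.591 (exact permutation p = 0.102) and a rho of 0.70 (exact permutation p = 0.0433, adjusted 0.377), and without Smc3/Bcl6 tumors 1 and 6 the r was 0.128. Against the macrophage markers Satb1 had an r of 0.699 (exact permutation p = 0.0679, adjusted 0.395) and a rho of 0.60 (exact permutation p = 0.0968), and an r of 0.616 without Smc3/Bcl6 tumor 1 and Bcl6 tumor 1. Over the 8 tumors other than Smc3/Bcl6 tumor 2 the r of Satb1 was 0.809 with the macrophage and 0.778 with the T-cell markers, and the difference between these coefficients was not tested.

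**Figure D5:**
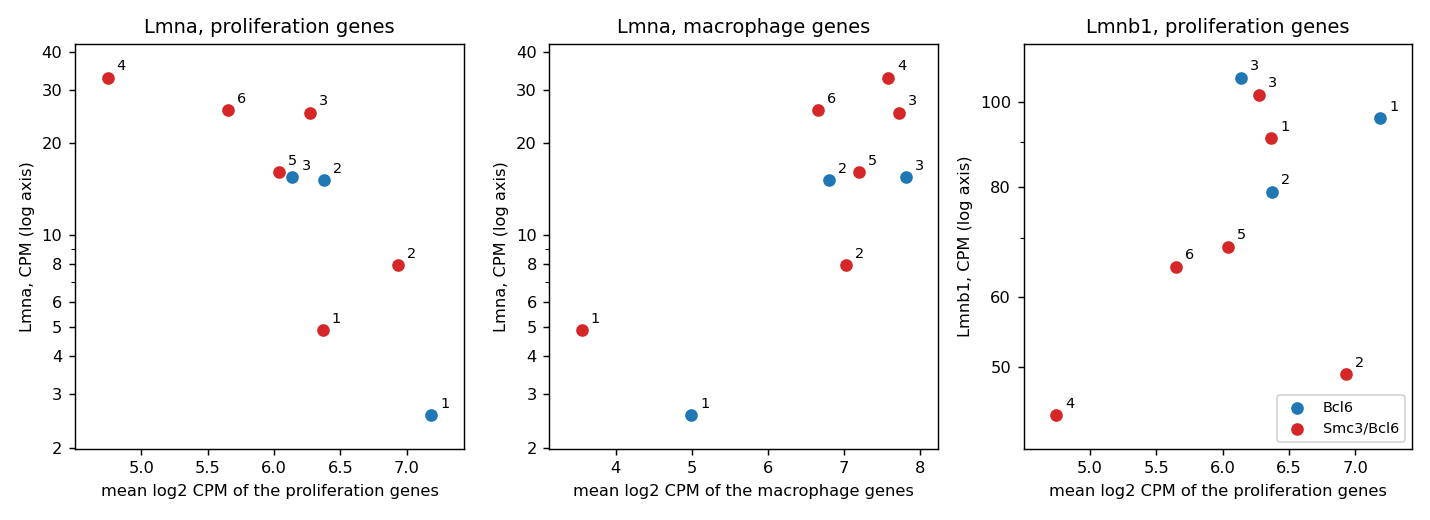
Lmna (left and middle) and Lmnb1 (right) in CPM (log y axes) against the mean log2 CPM of the proliferation or macrophage markers in the 9 tumors, Bcl6 in blue and Smc3/Bcl6 in red, numbered. Lmna was highest at 32.9 CPM in Smc3/Bcl6 tumor 4, where the proliferation mean was lowest at 4.75. It was lowest at 2.56 CPM in Bcl6 tumor 1, where that mean was highest at 7.19. Lmnb1 had an r of 0.465 with the proliferation markers (exact permutation p = 0.229). Without Smc3/Bcl6 tumor 2 it was 0.826 (exact permutation p = 0.0238, adjusted 0.206).

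The levels of these lists varied within both genotypes, and after adjustment 0 of their genes passed edgeR's test. At the looser thresholds in the main edgeR fit, 0 genes of the T-cell, B-cell, plasma cell, macrophage and stromal lists passed. There 1 of 8 proliferation genes was lower, beside 0.868% of all genes. Macrophage markers summed to 564 to 8274 CPM in Bcl6 and 302 to 8924 CPM in Smc3/Bcl6 tumors, and plasma cell markers to 1267 to 1581 and 688 to 3753 CPM. Lyz2 made up 5424 of the 8274 CPM and 5796 of the 8924 CPM, and Igj made up 2924 of the 3753 CPM. In Smc3/Bcl6 tumor 4 Lyz2 was at 235 CPM beside 720 CPM of Csf1r, the highest Csf1r of all tumors. Stromal and endothelial markers summed to 117 to 148 CPM in Bcl6 and 107 to 534 CPM in Smc3/Bcl6 tumors. There 502 of the 534 CPM were Lum in Smc3/Bcl6 tumor 2, and the next tumor, Smc3/Bcl6 tumor 4, reached 348 CPM. Pecam1 made up 318 of those 348 CPM and 111 of the 117 CPM in Bcl6 tumor 1. Smc3/Bcl6 tumor 5, with the lowest sum, had the highest Col1a1, Col1a2, Col3a1, Dcn and Sparc of the 9 tumors. The sums therefore do not rank the tumors by these 5 genes. Erythroid markers ranged from 47.6 to 1477 and from 123 to 12960 CPM, with 3 of 9 tested genes (Slc4a1 and Klf1 among them) higher past the looser thresholds, beside 1.28% of all genes. Their high values were in Smc3/Bcl6 tumors 4 and 6, such as 411 and 275 CPM of Slc4a1 against 0.313 to 9.07 CPM in the other tumors. Neutrophil markers ranged from 19.1 to 1842 and from 8.13 to 831 CPM, with 2 of 7 (Mpo and Elane) lower beside 0.868% of all genes, both with their high values in Bcl6 tumor 3. Among the defining markers Tnfrsf17, Col3a1, Lum, Ltf and Elane were at 0 in at least 1 tumor, and Cd3e, Cd79a and Cd68 in none. The part of these cells in the levels of the 8 genes was not tested beyond the relations above.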

How the data were processed

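RNA from 9 mouse lymphomas had been sequenced after TruSeq library preparation, and the authors aligned the reads with STAR to mm10 and counted them per gene with featureCounts on GENCODE M12. The deposited values are raw counts for 41128 genes, with 0 columns that match no sample. Gene positions and exon lengths came from GENCODE M21 of the same build, which held 97.9% of the gene IDs. Here counts were filtered by filterByExpr, scaled by TMM and tested with edgeR 4.0.16 (quasi-likelihood, R 4.3.3), Benjamini-Hochberg over all genes. DESeq2 1.42.0, limma 3.58.1 with sample quality weights, other scalings, no filter, the tissue label as covariate, an offset for gene length and GC content (lowess over genes, span 0.3), a replicate block and leaving out each tumor were alternatives. Log2 CPM used a prior count of 2. SE are those of the fits, and steps were tested on simulated counts. Deviations of same-numbered tumors correlated at 0.443, 0.113 and 0.156, all above the bound set for pairing, so blocked values stand beside results whose call they change. These correlations were not compared with those of differently numbered tumors, and the labels do not say what a number shares. The highest belongs to the tumors numbered 1, which alone share the mesenteric lymph node label. Whether the pairs are real was thus not settled. Correlations used exact permutation. The 8 genes, the 7 lists by role and the 8 marker lists were chosen with earlier results of these data known. Besides the 8 genes, those named are Smc3, Cd3e, list members past the looser thresholds or otherwise with the smallest p, defining markers, and the 5 genes most like Satb1, Ctcf and Lmna, of which 1 is not reported here. Tcf7, Cd28, Lck, Cd3d, Igj, Sdc1, Lyz2, Lum, Slc4a1, Klf1, Mpo and Elane were named after their values were seen. Totals of 10156728 to 17774577 reads leave the low genes least precise, down to 25 reads for Satb1 and 29 for Lmna.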

Additional observations from a re-analysis of the deposited data

Results flagged for a closer look

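Of 9 measures examined in the 6 Smc3/Bcl6 tumors (log2 CPM of the 8 genes and the lamin ratio), 3 had a lowest tumor far from the others: its gap to the nearest tumor, as a share of the group's range, exceeded the critical value of 0.625 in Dixon's test. The share was 0.721 for Ctcf, 0.842 for Top2b and 0.688 for Lbr, and in each the tumor was Smc3/Bcl6 tumor 2. Chance alone passes this bound in about 1 of 20 groups, and the genes share that library.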

How the results depend on the processing

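With the fits named in the methods, 18 alternatives in all, the log2 fold changes of Ctcf, Yy1, Ldb1, Satb1, Lmna, Lmnb1 and Lbr kept their sign (Ldb1 at no more than 0.05 with the block), and 0 of the 8 genes had an adjusted p below 0.05 in any. Top2b reversed to 0.066 in limma, and its values without 1 tumor ran from -0.19 to 0.18. The count past the looser thresholds, 0 of 8, was 1 in limma and 1 with the replicate block (Satb1 in both) and 0 to 1 without 1 tumor. In limma Satb1 was at -2.18 (unadjusted p = 0.0436) beside 11.7% of all genes passing. Of the genes in the lists by role, limma put 2 higher and 6 lower, no filter put 1 higher, the block with the length and GC offset put 0 lower, and leaving out 1 tumor gave 0 to 1 higher and 1 to 2 lower. Syne2 joined Syne1 and Top2a with the block, and Tcf3 was the gene higher without Smc3/Bcl6 tumor 2. For Satb1 against Cd3e, r was 0.733 with the offset and from 0.285 to 0.753 without 1 tumor. The counts of all genes past the looser thresholds, 180 higher and 122 lower, became 576 and 812 with no filter, 642 and 1002 in limma, 342 and 101 in DESeq2, 108 and 175 by library size alone, 130 and 192 with the tissue label, and 45 and 254 with the replicate block. The study, also with DESeq2, reported more genes downregulated than upregulated at these thresholds, the reverse of the DESeq2 counts here. The lamin ratio differed by 0.46 to 1.88 without 1 tumor and by 0.51 with the block. The cause of these changes was not tested. The SE of the 8 genes were 0.29 to 1.13 log2 units over 9 tumors, and fell to 0.21 for Ctcf and 0.18 for Top2b without Smc3/Bcl6 tumor 2.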
